A study of Mus musculus with 6 samples.

Results

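The 39 genes described here encode the non-collagen matrix of connective tissue and the cells that make it. They are proteoglycans, elastic fibre proteins, lysyl oxidases, adhesive glycoproteins and marker genes of fibroblasts and mural cells. They were chosen by name for these roles, and all 39 were found by symbol among the 24067 genes of the count table. All 39 also passed the filter on low counts that left 15903 genes to test. The libraries came from whole tongues with tumours of C57BL/6 mice about 34 weeks old, 3 labelled HuR knockout (KO) and 3 labelled HuR wild type (WT). Mice of both labels had received the oral carcinogen 4-nitroquinoline 1-oxide for 16 weeks and were kept for 12 further weeks. HuR is the product of Elavl1 and attaches to AU-rich stretches of many transcripts. The labels name neither the knockout allele nor a Cre driver, and they number the replicates without saying whether each was a separate mouse. The p-values therefore cover the variation among these 6 libraries, which may be partly technical.

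Connective tissue matrix is built in layers. Small leucine-rich proteoglycans coat collagen fibrils and set their diameter and spacing, and versican binds hyaluronan in the space between them. Elastic fibres form when elastin is laid on microfibrils of fibrillin with the help of fibulins and is cross-linked by lysyl oxidases. Fibronectin, tenascins, thrombospondins and related glycoproteins link cells to this scaffold and are known to change in wounds and tumours. In the tongue the matrix fills the lamina propria under the epithelium and the sheaths around muscle fibres, and fibroblasts make most of it. Pericytes and smooth muscle cells, together called mural cells, surround the vessels.

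Total gene counts lay between 29543352 and 51520707 per library. Levels below are CPM, counts per 1000000 of the scaled library size, with ± as the SD over 3 libraries. Each log2 fold change sets labelled KO over labelled WT, with ± as its standard error, and a gene passed the test at an edgeR adjusted p under 0.05. Elavl1 stood at 65.0, 59.3 and 78.4 CPM in KO libraries 1 to 3, against 61.7, 55.8 and 48.0 CPM in WT libraries 1 to 3 (log2 fold change 0.29 ± 0.15, edgeR adjusted p = 0.180). Elavl1 was thus not lower under the KO label, and both groups are named here by their labels alone. KO replicates 2 and 3 held 48059 and 58499 counts of the X-inactivation RNA Xist, against 30 to 64 in the other 4 libraries, which held 5870 to 12126 counts of Y-linked genes. Both female tongues therefore carried the KO label.

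Matrix and stromal genes were lower in the KO-labelled libraries wherever the test was passed. Of the 39 genes, 12 fell and 0 rose by edgeR, with 24 lower and 2 higher at an unadjusted p under 0.05 (20.3% and 18.2% of all genes tested), and DESeq2 and limma-voom also called 0 higher. DESeq2 called 19 lower, adding Prelp, Podn, Fbln5, Sparc, Tnxb, Pi16 and Pdgfrb to the 12. The 12 make up 30.8% of the 39, where 7.43% of all genes tested were called lower and 4.81% higher. The 12 were the proteoglycan genes Ogn and Aspn, the elastic fibre genes Mfap4, Fbn1 and Mfap5, the fibulins Fbln2 and Efemp1, the lysyl oxidase Loxl1, the glycoproteins Fn1 and Dpt, the fibroblast protease Fap and the pericyte gene Rgs5. The median log2 fold change of the 39 was -0.47, against 0.02 over all genes tested, and 30 lay below 0. In 24 genes (61.5%) every KO-labelled library lay under every WT-labelled library, where 22.1% of all genes tested did so. In 2 genes (5.1%) every KO-labelled library lay above, where 22% of all genes tested did so. The number of calls changed when single libraries were dropped. Dropping KO replicate 1, 2 or 3 or WT replicate 2 left 0 of the 39 lower (22, 14, 13 and 16 at an unadjusted p under 0.05). Over all genes tested these fits called only 6, 0, 3 and 1 lower (2262, 2334, 2917 and 2329 at an unadjusted p under 0.05). The loss of calls was thus not particular to the 39. Dropping WT replicate 3 left 6 of the 39 lower, beside 437 over all genes tested. Dropping WT replicate 1 gave 18 of the 39 lower, beside 2938 over all genes tested. The log2 fold changes of the 12 stayed below 0 in each of the 16 alternative fits tried. These 12 were chosen by passing in the same libraries, and their groups did not overlap. Fits to fewer of these libraries, or by another method, could therefore hardly reverse their signs.

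**Figure D1:**
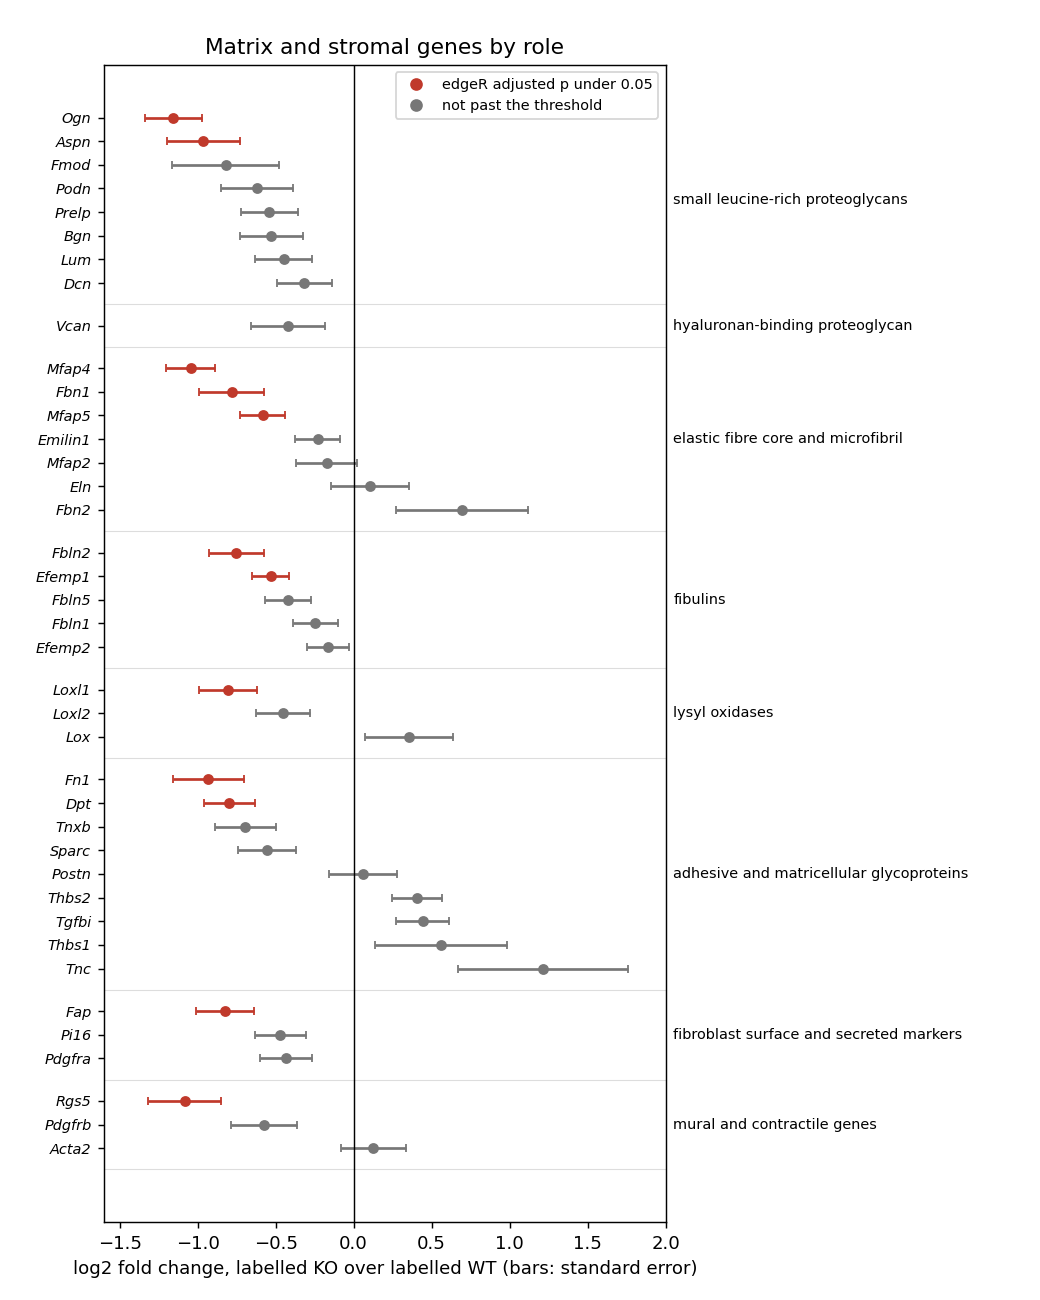
The plot of log2 fold changes shows each of the 39 genes, grouped by role down the page, as labelled KO over labelled WT with its standard error. The 12 red points passed the test and lie between -1.16 (Ogn) and -0.53 (Efemp1), while the grey points to the right of 0 are 9 genes led by Tnc at 1.21.

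All 8 small leucine-rich proteoglycan genes lay below 0 (median -0.58), and 2 of them fell. Osteoglycin, Ogn, a proteoglycan that regulates collagen fibril assembly, had the largest fall of the 39. Ogn stood at 11, 11.6 and 11.5 CPM in KO libraries 1 to 3, against 22.1, 32.4 and 21.4 CPM in WT libraries 1 to 3. Every KO-labelled library was near the same level, and the groups did not overlap (log2 fold change -1.16 ± 0.18, 95% interval -1.58 to -0.74, edgeR adjusted p = 0.0295). Asporin, Aspn, which binds collagen and TGF-beta, stood at 15.8, 16.9 and 14.2 CPM in the KO-labelled libraries, against 23.4, 42.8 and 25.1 CPM in the WT-labelled ones. WT replicate 2 was well above the other two of its group, and the groups did not overlap (-0.96 ± 0.24, edgeR adjusted p = 0.0428).

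The gene pair Ogn and Aspn lies in a cluster of proteoglycan genes on chromosome 13. In GRCm38 the order is Ecm2 (49504810 to 49532789), Aspn (49544443 to 49567565), Omd (49582462 to 49592612) and Ogn (49608015 to 49624501). Ecm2, a related leucine-rich repeat gene outside the 39, also fell, with 13.1 ± 1.89 CPM in the KO-labelled libraries and 27.3 ± 8.22 CPM in the WT-labelled ones (-1.06 ± 0.22, edgeR adjusted p = 0.0354). Omd, which encodes osteomodulin and lies between Aspn and Ogn, stood at 1.57 ± 0.468 CPM in the KO-labelled libraries and 1.93 ± 0.396 CPM in the WT-labelled ones (-0.30 ± 0.30, edgeR adjusted p = 0.467). Aspn and Ogn lie within the span of Cenpp, a centromere gene on the opposite strand, which shares 7 exon bases with Aspn and 0 with Ogn and stood at a log2 fold change of -0.15. The promoter windows of Ogn and Aspn are shown because these neighbours fell together. They run from 250 bases before to 50 after the start of the gene, on the + strand at chr13:49607765-49608064 for Ogn and chr13:49544193-49544492 for Aspn, from RefSeq on GRCm38.p6. Capitals mark matches to TATAAA, the TATA box, and to GGAATG, the core of the TEAD site, on either strand.
Ogn: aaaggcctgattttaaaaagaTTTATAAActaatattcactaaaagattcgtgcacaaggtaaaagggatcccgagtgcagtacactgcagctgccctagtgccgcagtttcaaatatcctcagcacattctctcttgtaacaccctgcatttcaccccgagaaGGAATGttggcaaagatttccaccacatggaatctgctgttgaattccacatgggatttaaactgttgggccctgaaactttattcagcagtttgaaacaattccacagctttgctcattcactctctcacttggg
Aspn: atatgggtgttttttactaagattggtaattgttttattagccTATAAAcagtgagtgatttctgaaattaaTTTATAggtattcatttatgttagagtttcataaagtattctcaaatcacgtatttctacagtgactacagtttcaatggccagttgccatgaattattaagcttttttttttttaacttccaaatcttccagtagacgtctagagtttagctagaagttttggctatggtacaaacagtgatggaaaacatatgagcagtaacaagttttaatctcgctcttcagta
Both windows hold TATAAA on each strand, far upstream of the start, and in Ogn the 2 matches overlap. Over the 39 genes, 26 matched the promoter table with 34 windows, and 7 of these (20.6%) held TATAAA on either strand, against 8.3% of the 15609 windows of genes tested. Among these 7, 2 were overlapping windows of Tnc that held the same match, so that match was counted in both. TGANTCA, a looser form of the AP-1 motif, was in 2 windows (5.9% against 6.0%), as TGAGTCA in Tnxb and TGAATCA in Efemp1. GGAATG was in 3 (8.8% against 12.6%). These are matches of letters and not sites shown to be bound.

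Decorin, Dcn, the main proteoglycan on collagen fibrils, had the highest level of the 39 per length of exon. It averaged 248 ± 37.3 CPM per kilobase in the KO-labelled libraries and 308 ± 20.98 CPM per kilobase in the WT-labelled ones. Dcn stood at 508, 534 and 398 CPM in KO libraries 1 to 3, against 575, 644 and 573 CPM in WT libraries 1 to 3. The groups did not overlap, yet the difference was small and did not pass (-0.32 ± 0.18, 95% interval -0.73 to 0.09, edgeR adjusted p = 0.219). Biglycan, Bgn, the closest relative of decorin, stood at 159, 132 and 127 CPM in the KO-labelled libraries, against 172, 263 and 168 CPM in the WT-labelled ones. WT replicate 2 was again the highest (-0.53 ± 0.20, edgeR adjusted p = 0.0993). Lumican, Lum, the neighbour of Dcn on chromosome 10, stood at -0.45 ± 0.18, Prelp at -0.54 ± 0.18, podocan, Podn, at -0.62 ± 0.23 and fibromodulin, Fmod, at -0.82 ± 0.34. None of these 4 passed by edgeR. Fmod was scarce, with 99 to 510 counts per library. Versican, Vcan, averaged 14.1 ± 2.89 CPM in the KO-labelled libraries and 18.8 ± 5.07 CPM in the WT-labelled ones, and the groups overlapped (-0.42 ± 0.24, edgeR adjusted p = 0.217). In single libraries Vcan stood at 17.1, 11.4 and 13.6 CPM under the KO label, against 19.6, 23.4 and 13.3 CPM under the WT label.

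Among 7 genes of the elastic fibre core and its microfibrils, 3 fell, 0 rose and 4 did not pass, and 2 of these 4 lay above 0. Microfibril-associated protein 4, Mfap4, which binds elastin and fibrillin, stood at 37.3, 36.4 and 30.2 CPM in KO libraries 1 to 3, against 61.6, 85.7 and 66.9 CPM in WT libraries 1 to 3. The groups were well apart (-1.04 ± 0.16, 95% interval -1.41 to -0.68, edgeR adjusted p = 0.0295). Its exons share 89 bases (5.0%) with Mapk7 on the opposite strand, which stood at 0.29. Fibrillin 1, Fbn1, the main microfibril protein after birth, stood at 85.9, 57.6 and 57.2 CPM in the KO-labelled libraries, against 95.7, 141.0 and 108 CPM in the WT-labelled ones. KO replicate 1 came closest to WT replicate 1, and the groups did not overlap (-0.78 ± 0.21, edgeR adjusted p = 0.0490). Of its exon bases 20.3% are shared with Gm9913, which lies on the opposite strand and was not tested. Mfap5, a microfibril glycoprotein that binds fibrillin, stood at 20.4, 18.6 and 20.9 CPM, against 25.1, 34.1 and 30.6 CPM in the WT-labelled libraries (-0.58 ± 0.15, edgeR adjusted p = 0.0440).

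The elastin gene itself, Eln, did not pass. It stood at 54.5, 46.5 and 94.6 CPM in KO libraries 1 to 3, against 56.0, 65.9 and 59.9 CPM in WT libraries 1 to 3. KO replicate 3 alone lay above the WT-labelled libraries, while KO replicates 1 and 2 lay under them (0.11 ± 0.25, edgeR adjusted p = 0.773). Without KO replicate 3 the log2 fold change was -0.26. Fibrillin 2, Fbn2, which prevails in the embryo, stood at 10.5 ± 1.67 CPM in the KO-labelled libraries and 6.43 ± 3.73 CPM in the WT-labelled ones (0.69 ± 0.43). Its 2.35 CPM in WT replicate 3 was the lowest of the 6 libraries. Emilin1, which is found between elastin and microfibrils, and Mfap2 stood at -0.23 ± 0.14 and -0.17 ± 0.20. Fbn1 and Fbn2 thus lay on opposite sides of 0, a contrast that was not tested.

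Fibulins are glycoproteins that bind elastin, microfibrils and basement membranes. All 5 lay below 0 and 2 fell. Fibulin 2, Fbln2, stood at 78.3, 62.8 and 66.5 CPM in KO libraries 1 to 3, against 89.1, 137 and 123 CPM in WT libraries 1 to 3 (-0.75 ± 0.18, edgeR adjusted p = 0.0408). Efemp1, also called fibulin 3, stood at 25.3, 23.9 and 22.5 CPM in the KO-labelled libraries, against 31.3, 35.2 and 37.1 CPM in the WT-labelled ones (-0.53 ± 0.12, edgeR adjusted p = 0.0378). The groups did not overlap in either gene. Fbln1 stood at 39.9, 33.6 and 38.3 CPM, against 50.7, 44.3 and 37.6 CPM in the WT-labelled libraries, so that WT replicate 3 fell among the KO-labelled libraries (-0.25 ± 0.14, edgeR adjusted p = 0.231). Fbln5, which is required for elastic fibres to form in mice, stood at -0.42 ± 0.15 (edgeR adjusted p = 0.0840). Efemp2, fibulin 4, stood at -0.16 ± 0.13.

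Of the 3 lysyl oxidases, copper enzymes that cross-link collagen and elastin, 1 fell, 0 rose and 2 did not pass. Loxl1, which acts on elastin, stood at 21.2, 19.3 and 28.6 CPM in KO libraries 1 to 3, against 33.7, 45.3 and 41.7 CPM in WT libraries 1 to 3 (-0.80 ± 0.18, edgeR adjusted p = 0.0383). Loxl2, which acts on basement membrane collagen, stood at 15.3, 13.7 and 13.2 CPM in the KO-labelled libraries, against 15.5, 23.3 and 19.0 CPM in the WT-labelled ones (-0.45 ± 0.17, edgeR adjusted p = 0.0995). Groups were apart in both, with WT replicate 1 close to KO replicate 1 in Loxl2. Lox stood at 6.96 ± 2.11 CPM in the KO-labelled libraries and 5.44 ± 1.57 CPM in the WT-labelled ones, with overlap (0.35 ± 0.28, 95% interval -0.30 to 1.01).

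**Figure D2:**
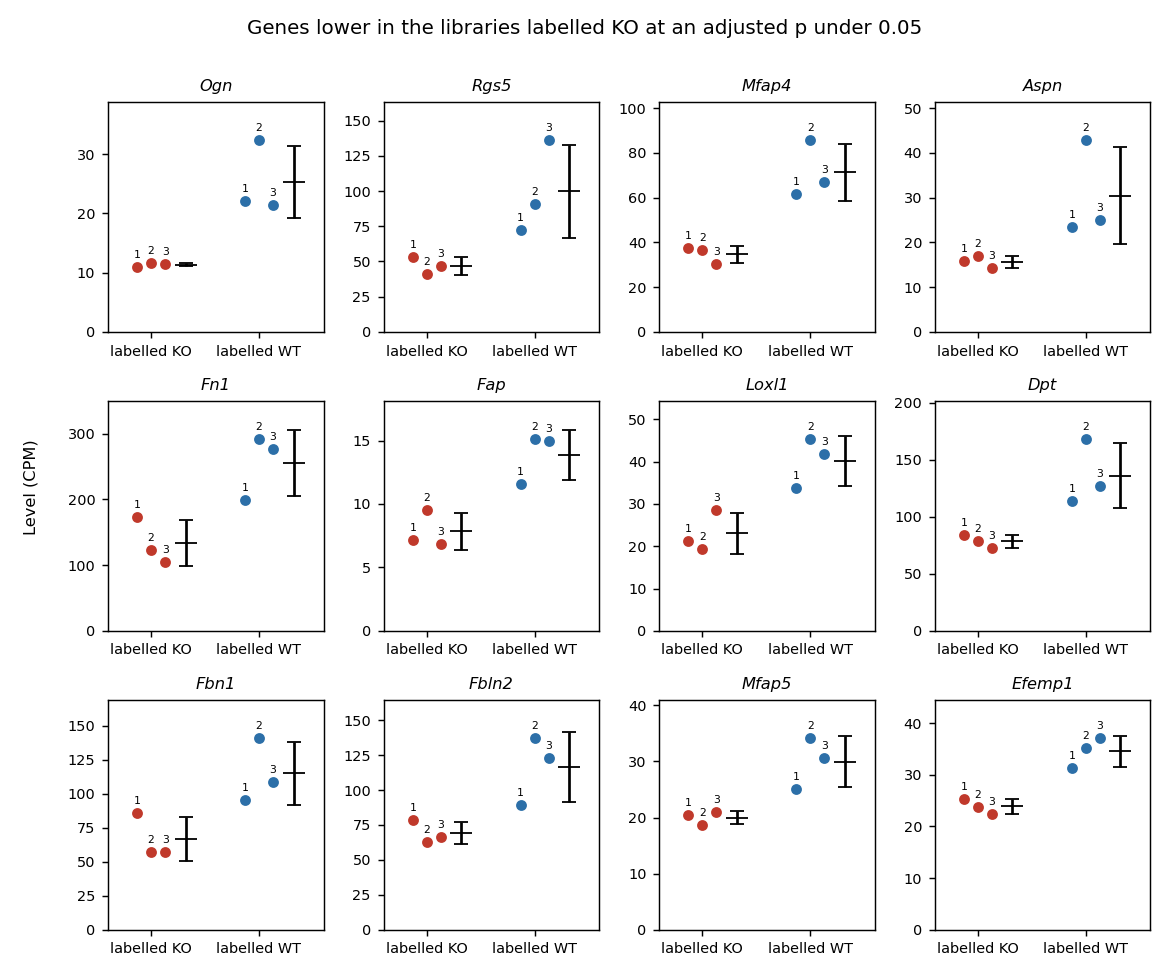
The panels give the level in CPM of the 12 genes that fell, each library as a numbered point, labelled KO left of labelled WT, with a bar for the mean and SD beside each group. No point labelled KO reaches the lowest point labelled WT in any panel, and WT replicate 2 is the highest in 10 of them, the exceptions being Rgs5 and Efemp1.

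The 9 adhesive and matricellular glycoprotein genes had a median log2 fold change of 0.06, and they held most of the genes above 0. Of the 9, 2 fell, 0 rose and 7 did not pass. Fibronectin, Fn1, the main adhesive protein of provisional matrix, stood at 173, 124 and 105 CPM in KO libraries 1 to 3, against 199, 292 and 276 CPM in WT libraries 1 to 3. The groups did not overlap (-0.93 ± 0.23, 95% interval -1.46 to -0.41, edgeR adjusted p = 0.0424). Dermatopontin, Dpt, a small matrix protein that binds decorin, stood at 84.3, 78.3 and 72.3 CPM in the KO-labelled libraries, against 113, 168 and 127 CPM in the WT-labelled ones (-0.80 ± 0.16, edgeR adjusted p = 0.0344). It ranked 4 per kilobase of exon in the WT-labelled libraries, after Dcn, Sparc and Bgn, with 45.4 ± 3.49 CPM per kilobase in the KO-labelled ones and 78.9 ± 16.5 CPM per kilobase in the WT-labelled ones. Bgn, at 83.1 ± 22.3 CPM per kilobase in the WT-labelled libraries, did not differ from it beyond their spread. The Dpt promoter is shown because Dpt fell and its TATAAA match lies near the start, at base 13 after it. It is on the + strand at chr1:164796413-164796712, from RefSeq on GRCm38.p6, with the match in capitals.
Dpt: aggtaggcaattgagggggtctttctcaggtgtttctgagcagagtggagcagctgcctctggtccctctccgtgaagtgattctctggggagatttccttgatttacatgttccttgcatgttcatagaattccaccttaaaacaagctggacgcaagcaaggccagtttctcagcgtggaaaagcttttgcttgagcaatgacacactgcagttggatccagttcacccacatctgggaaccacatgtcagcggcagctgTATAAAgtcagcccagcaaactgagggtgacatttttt

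Sparc, a collagen-binding matricellular protein, stood at 211, 165 and 165 CPM in KO libraries 1 to 3, against 221, 249.3 and 326 CPM in WT libraries 1 to 3. The groups were apart, and edgeR did not call the gene (-0.56 ± 0.19, edgeR adjusted p = 0.0765). Tenascin X, Tnxb, whose loss in people causes a form of Ehlers-Danlos syndrome, averaged 86.8 ± 5.74 CPM in the KO-labelled libraries and 140.3 ± 37.9 CPM in the WT-labelled ones (-0.69 ± 0.20, edgeR adjusted p = 0.0534).

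The other 5 glycoprotein genes lay above 0, and their values are given here because of that position, so they were chosen after it was seen. Tgfbi, a TGF-beta induced protein that binds integrins, stood at 167, 132 and 114 CPM in KO libraries 1 to 3, against 104, 88.2 and 112 CPM in WT libraries 1 to 3 (0.44 ± 0.17, edgeR adjusted p = 0.0986). Thrombospondin 2, Thbs2, an inhibitor of angiogenesis, stood at 11.6, 10.6 and 9.79 CPM in the KO-labelled libraries, against 9.06, 7.07 and 7.97 CPM in the WT-labelled ones (0.41 ± 0.16, edgeR adjusted p = 0.105). These were the only genes of the 39 in which every KO-labelled library lay above every WT-labelled library. Tenascin C, Tnc, a protein of wound and tumour stroma, stood at 98.03, 40.2 and 52.6 CPM in KO libraries 1 to 3, against 52.1, 17.5 and 12.6 CPM in WT libraries 1 to 3. KO replicate 1 was far above the rest, and WT replicate 1 reached the level of KO replicate 3 (1.21 ± 0.54, 95% interval -0.04 to 2.47, edgeR adjusted p = 0.140). Without WT replicate 1 the log2 fold change of Tnc was 2.09, and edgeR then called both Tnc and Thbs2 higher. Thbs1 stood at 85.7, 36.4 and 42.7 CPM in the KO-labelled libraries, against 47.4, 46.1 and 18.1 CPM in the WT-labelled ones, with wide overlap (0.56 ± 0.42). Periostin, Postn, known from tumour fibroblasts, stood at 41.5 ± 4.72 CPM in the KO-labelled libraries and 39.9 ± 12.6 CPM in the WT-labelled ones (0.06 ± 0.22).

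**Figure D3:**
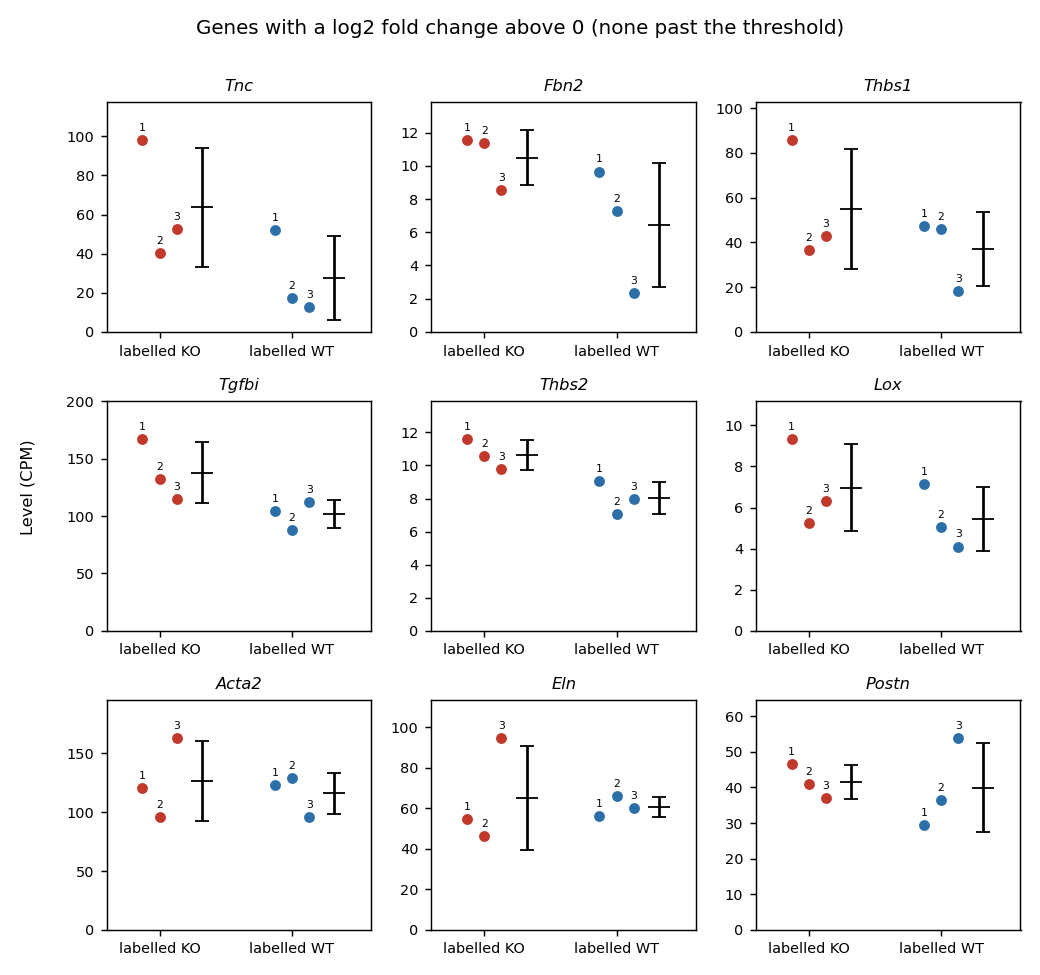
The panels give the level in CPM of the 9 genes with a log2 fold change above 0, each library as a numbered point, labelled KO left of labelled WT, with a bar for the mean and SD beside each group. The groups are apart in Tgfbi and Thbs2 and overlap in the other panels, where 1 library often stands off, such as KO replicate 1 for Tnc and Thbs1 (98.03 and 85.7 CPM) and KO replicate 3 for Eln (94.6 CPM).

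AU-rich elements, to which HuR binds, were searched for in the 3′ UTR of each gene. The pentamer ATTTA was in 24 of 39 (61.5%), against 64.7% of the 14627 genes tested that have a 3′ UTR, at 1.97 and 1.80 per kilobase. Among the 12 genes that fell, 7 (58.3%) held it. The nonamer TTATTTATT, a classic AU-rich element, was in 3 of 39 (7.7%), against 6.9% of the genes tested, and in 0 of the 12 that fell. These were Thbs1, Thbs2 and Fbn2, each above 0 and none past the test. The sites of both thrombospondins are shown because they alone of the 9 glycoprotein genes hold the nonamer, with the nonamer in capitals and written as DNA along the gene. They lie on GRCm38 at chr2:118126157-118126181 on the + strand for Thbs1 and chr17:14665595-14665619 on the - strand for Thbs2.
Thbs1: aatacagaTTATTTATTaaccctgt
Thbs2: gtaaatatTTATTTATTtgttcatt
The match is a description of letters, with no measure of binding, and no element was tested against the fold changes.

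Of the fibroblast marker genes, Fap, a surface protease of activated fibroblasts, fell. It stood at 7.17, 9.496 and 6.87 CPM in KO libraries 1 to 3, against 11.6, 15.1 and 14.9 CPM in WT libraries 1 to 3 (-0.82 ± 0.19, edgeR adjusted p = 0.0381). Pi16, a marker of the adventitial fibroblasts known as universal fibroblasts in mice, stood at 107, 86.5 and 81.8 CPM, against 119, 151 and 112 CPM in the WT-labelled libraries (-0.47 ± 0.16, edgeR adjusted p = 0.0796). Pdgfra, the PDGF receptor that marks fibroblasts, stood at 44.2, 33.5 and 39.9 CPM, against 52.7, 62.8 and 43.2 CPM in the WT-labelled libraries (-0.43 ± 0.17, edgeR adjusted p = 0.104). The groups were apart in Pi16 and overlapped in Pdgfra, where WT replicate 3 lay under KO replicate 1. In whole tissue, fewer fibroblasts and less RNA per fibroblast cannot be told apart.

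Of the 3 mural genes, 1 fell, 0 rose and 2 did not pass. Rgs5, a G-protein regulator that marks pericytes, stood at 53.5, 40.8 and 46.9 CPM in KO libraries 1 to 3, against 72.2, 91.0 and 136 CPM in WT libraries 1 to 3. The groups were apart and WT replicate 3 was the highest (-1.08 ± 0.23, 95% interval -1.62 to -0.55, edgeR adjusted p = 0.0359). Pdgfrb, the PDGF receptor of pericytes, averaged 51.6 ± 4.61 CPM in the KO-labelled libraries and 77.0 ± 24.1 CPM in the WT-labelled ones (-0.58 ± 0.21, edgeR adjusted p = 0.0906). Acta2, smooth muscle alpha-actin, also used as a marker of myofibroblasts, stood at 121, 96.0 and 163 CPM in the KO-labelled libraries, against 123, 129 and 96.3 CPM in the WT-labelled ones, with full overlap (0.13 ± 0.21, edgeR adjusted p = 0.672). Actin genes are close copies, and reads of Acta2 may be shared with skeletal muscle actin, so its value is uncertain.

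The 39 genes were also set against collagen, by dividing each count by the summed counts of 8 collagen genes (types I, III, V and VI) of the same library. These 8 genes themselves lay below 0, with 4 lower, 0 higher and a median log2 fold change of -0.63, and they held 0.0667% to 0.0966% of counts in the KO-labelled libraries and 0.105% to 0.115% in the WT-labelled ones. Relative to them the median difference of the 39 (labelled KO minus labelled WT, log2) was 0.16, against 0.64 over all genes tested. In 2 genes every KO-labelled library lay under every WT-labelled library, as in 1.38% of all genes tested, and in 11 genes above, as in 56.1% of all genes tested. The 2 lower were Mfap4 and Fn1. Mfap4 had 40.9, 50.1 and 46.6 counts per 1000 collagen counts in KO replicates 1, 2 and 3, against 61.0, 69.8 and 52.7 in WT replicates 1, 2 and 3, a log2 difference of -0.41. Fn1 had 190, 170 and 162 counts per 1000 collagen counts in the KO-labelled libraries, against 197, 238 and 218 in the WT-labelled ones, a log2 difference of -0.32. With 14 other fibroblast marker genes as the divisor, 4 genes were lower in this way, as in 3.04% of all genes tested, and 9 higher, as in 56.4%. The 4 were Ogn, Rgs5, Mfap4 and Dpt, while Fn1 overlapped with this divisor. Gsn was the largest part of this divisor, at 902 ± 105.5 CPM in the KO-labelled libraries and 1632 ± 338 CPM in the WT-labelled ones. Lrp1 came next at 350 and 323 CPM. Gsn itself fell (-0.86 ± 0.23), so the ratios to this divisor depend largely on that gene.

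The 11 higher genes relative to collagen were Tnc, Fbn2, Thbs1, Tgfbi, Thbs2, Lox, Acta2, Postn, Eln, Efemp2 and Emilin1. Tgfbi had 183, 182 and 176 counts per 1000 collagen counts in KO replicates 1, 2 and 3, against 103, 71.8 and 88.3 in WT replicates 1, 2 and 3. Postn had 51.0, 56.5 and 57.2 in the KO-labelled libraries, against 29.2, 29.7 and 42.5 in the WT-labelled ones. Tnc had 108, 55.4 and 81.2, against 51.6, 14.3 and 9.95 in the WT-labelled libraries. The log2 differences of these 3 genes were 1.06, 0.72 and 2.01, where the median over all genes tested was 0.64. With this divisor 56.1% of all genes tested were higher with groups apart, so that position does not set the 3 genes off from the rest. Dcn, with 558, 735 and 614 counts per 1000 collagen counts in the KO-labelled libraries, against 570, 525 and 452 in the WT-labelled ones, overlapped. The number of genes lower relative to collagen was 6 without KO replicate 3, where 6.66% of all genes tested were lower in this way, and 5 without WT replicate 3, where 1.83% were. Groups of fewer libraries separate more easily.

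**Figure D4:**
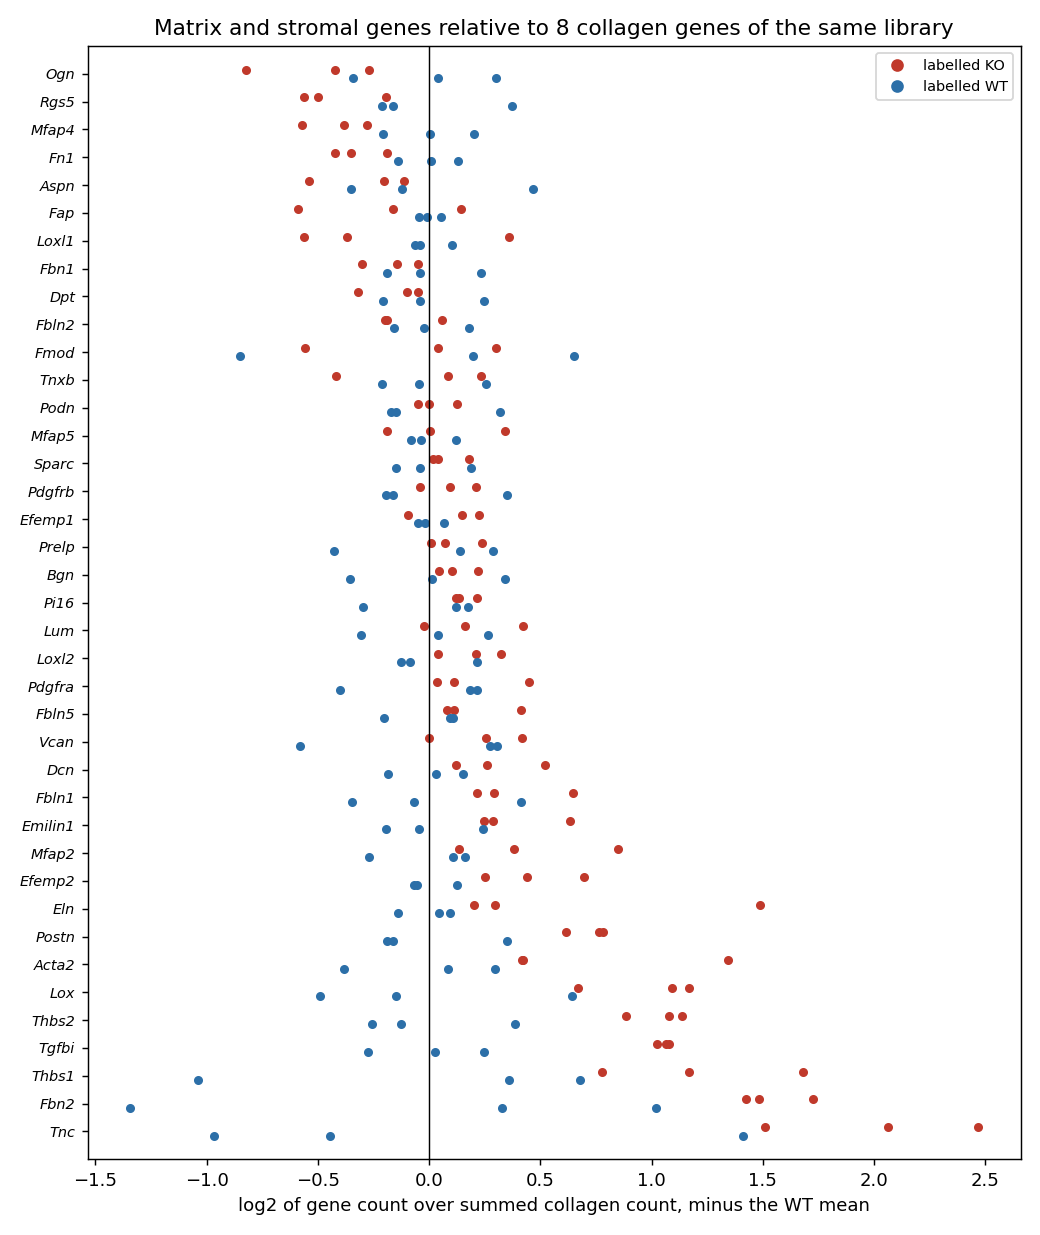
Each row is 1 of the 39 genes and each point 1 library, red for labelled KO and blue for labelled WT, plotted as the log2 of the gene's count over the summed collagen count, minus the mean of the WT-labelled libraries. From top to bottom the difference runs from -0.50 (Ogn) to 2.01 (Tnc), and in the 10 lowest rows the red points lie to the right of all blue ones.

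Other genes of the same pathways came from lists chosen by name, and their counts are read against the 7.43% of all genes tested that were called lower. Among these lists the other elastic fibre genes (7.14%), the chondroitin and dermatan sulfate genes (6.25%) and the TGF-beta and PDGF genes (7.69%) were at about that share. Of 14 other fibroblast markers, 7 fell and 0 rose (median -0.38). Among those that fell were Cd248 (-0.90 ± 0.15), the procollagen processing enhancer Pcolce (-0.80 ± 0.13) and Serpinf1 (-0.85 ± 0.13). Of these 14, 10 lay below 0 and 4 above it. The 4 were S100a4 (0.38 ± 0.19), Ly6a (0.29 ± 0.16), Lrp1 (0.12 ± 0.16) and Pdpn (0.08 ± 0.15), each with overlap. Of 6 tested among 8 other small leucine-rich proteoglycan genes, 2 fell, Ecm2 and the scarce keratocan gene Kera, and 0 rose (median -0.20). Kera stood at 0.109, 0.0529 and 0.189 CPM in KO libraries 1 to 3, against 0.459, 0.459 and 0.352 CPM in WT libraries 1 to 3. It passed the filter on low counts only through the WT-labelled libraries, so its call is no support for a fall of this list. Of 14 other elastic fibre genes, 1 fell, Loxl3 (-0.70 ± 0.17), and 0 rose (median -0.32). Of 20 other matricellular and basement membrane glycoproteins, 3 fell, Nid1 (-0.92 ± 0.20), Sparcl1 (-0.78 ± 0.17) and Smoc1 (-1.35 ± 0.32), and 0 rose (median -0.48). Of 10 tested among 14 hyaluronan and large proteoglycan genes, 1 fell, perlecan, Hspg2 (-0.67 ± 0.16), and 0 rose (median 0.19), with 3 higher and 1 lower by unadjusted p under 0.05. Of 16 genes of chondroitin and dermatan sulfate synthesis, 1 fell, Csgalnact2 (-0.52 ± 0.13), and 0 rose (median 0.11), with 2 higher and 1 lower by unadjusted p under 0.05, and with groups apart in 4 higher and 1 lower. Of 13 TGF-beta and PDGF genes, 1 fell, the ligand Tgfb3 (-0.85 ± 0.18), and 0 rose (median -0.21). Of 11 genes of activated and tumour fibroblasts, 3 fell, Itga11 (-1.04 ± 0.22), Myl9 (-0.62 ± 0.16) and Lrrc17 (-0.91 ± 0.24), and 0 rose (median -0.45). Of these 11, 6 lay below 0 and 5 above it. The 5 were Inhba, Lrrc15, Adam12, Il11 and Cthrc1, and none of them passed. Of 13 pericyte and smooth muscle markers, 3 fell, Abcc9 (-1.25 ± 0.21), Myh11 (-0.75 ± 0.15) and Heyl (-0.99 ± 0.26), and 0 rose (median -0.75). Of these 13, 11 lay below 0 and 2 above it, Notch3 (0.27 ± 0.13) and Steap4 (0.16 ± 0.12). In both of these every KO-labelled library lay above every WT-labelled library, while in 8 of the 13 every KO-labelled library lay under. Abcc9 is also known from muscle, so it is not a marker of pericytes alone.

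Marker genes of other tissues also differed between the labels. All 16 skeletal muscle markers lay below 0, and 6 fell. They held 4.82% to 6.58% of counts in the KO-labelled libraries and 8.33% to 12.8% in the WT-labelled ones. All 14 suprabasal keratinocyte markers lay above 0, and 5 rose. They held 3.001% to 4.34% in the KO-labelled libraries and 1.43% to 2.31% in the WT-labelled ones. Of 11 basal keratinocyte markers 10 lay above 0 and 0 passed by edgeR (at an unadjusted p under 0.05, 5 were higher and 1 lower), with 1.51% to 1.68% in the KO-labelled libraries and 0.659% to 1.37% in the WT-labelled ones. The 39 matrix and stromal genes held 0.276%, 0.240% and 0.221% of counts in KO replicates 1, 2 and 3, against 0.287%, 0.319% and 0.270% in WT replicates 1, 2 and 3, so that KO replicate 1 lay above WT replicate 3. Endothelial markers lay below 0 in 10 of 10 and 3 fell, Schwann cell markers in 7 of 7 and 3 fell, and adipocyte markers in 5 of 7 and 1 fell. Among 9 macrophage and neutrophil markers 1 rose, Cd14, and the list held 0.0866% to 0.228% of counts in the KO-labelled libraries and 0.0197% to 0.0587% in the WT-labelled ones. Most of that share in the KO-labelled libraries was S100a9 and S100a8, calcium-binding proteins of neutrophils that keratinocytes also make. S100a9 averaged 730.3 ± 439 CPM in the KO-labelled libraries and 64.5 ± 93.8 CPM in the WT-labelled ones, while S100a8 averaged 418 ± 219.5 CPM in the KO-labelled libraries and 60.3 ± 87.5 CPM in the WT-labelled ones. Neither gene passed. The macrophage markers Lyz2, C1qa, Mrc1, Csf1r and Cd68 lay between -0.14 and 0.12, each with overlap. By edgeR 0 of 8 lymphocyte, 0 of 5 tendon and cartilage and 0 of 4 salivary gland markers passed (at an unadjusted p under 0.05, 4, 1 and 0 were higher and 0 lower). The cartilage gene Matn1 and the salivary genes Dcpp1, Smgc and Prol1 did not pass the filter on low counts.

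Given the mean of the muscle markers, the mean of the basal keratinocyte markers or sex as a covariate, edgeR called 0 of the 39. At an unadjusted p under 0.05 the muscle covariate left 3 lower and 0 higher, the basal one 5 lower and 1 higher, and sex 10 lower and 3 higher. Over all 15903 genes tested these fits left 236 lower and 234 higher, 539 lower and 492 higher, and 1860 lower and 1672 higher. DESeq2 and limma-voom were not run with covariates. The median log2 fold change of the 12 genes that had fallen was -0.82 with no covariate (median SE 0.18). It was -0.63 given the muscle mean (0.32), -0.60 given the basal mean (0.24) and -0.80 given sex (0.27), and all 12 stayed below 0 in each. Some of the genes above 0, none of which had been chosen by passing the test, changed sign. With the basal mean Tnc stood at -0.13, Thbs1 at -0.32, Lox at -0.26 and Fbn2 at -0.20, and with the muscle mean at -0.43, -0.60, -0.43 and -0.50. Tgfbi (0.15 to 0.72) and Thbs2 (0.09 to 0.53) stayed above 0 in all 16 alternative fits. The groups did not overlap in either gene, so fits to fewer of these libraries, or by another method, could hardly reverse their signs. The part of muscle, epithelium and sex in these differences was not tested beyond these fits, and 6 libraries leave few degrees of freedom for them.

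**Figure D5:**
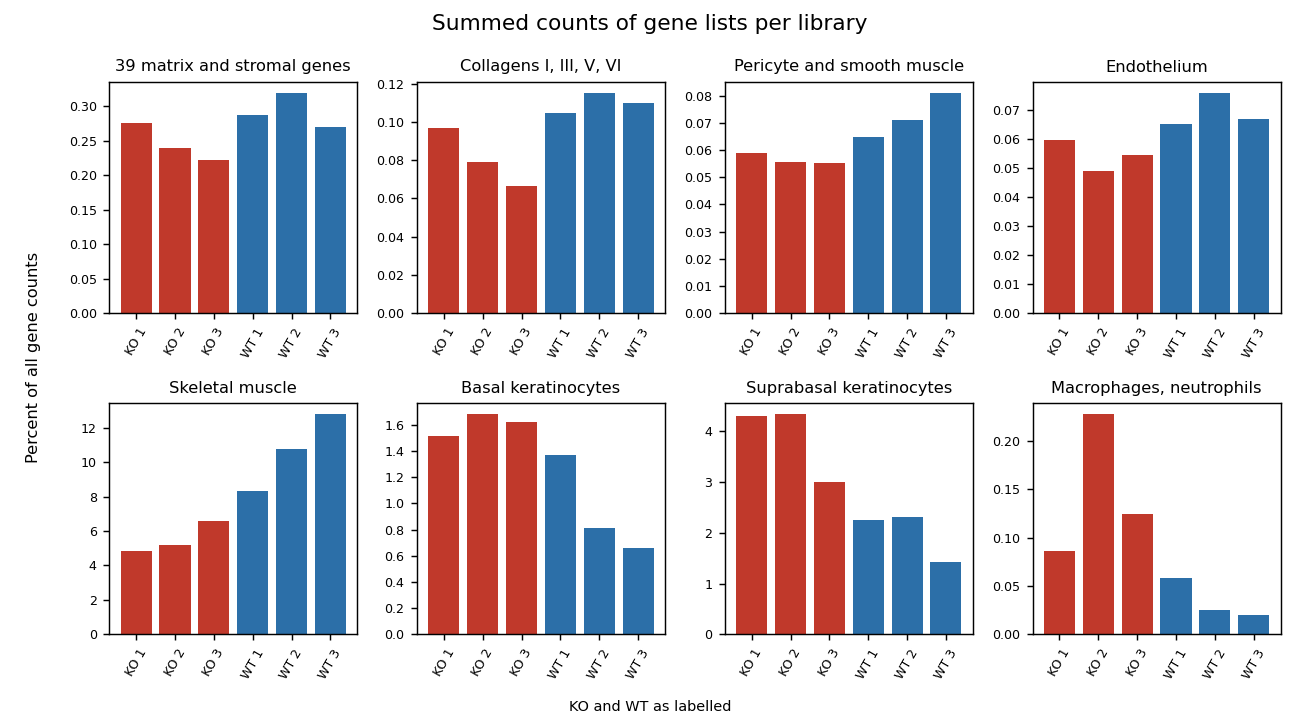
Bars give the percent of all gene counts held by each gene list in each library, red for labelled KO and blue for labelled WT. Muscle, collagen, mural and endothelial shares are lower in every KO-labelled library and both keratinocyte shares are higher, while the 39 matrix and stromal genes overlap (0.221% to 0.276% under the KO label, 0.270% to 0.319% under the WT label).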

How the data were processed

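Libraries were made from total RNA with the Illumina TruSeq RNA kit, per the labels' protocols. The authors deposited raw read counts per gene, not normalised, for the 6 libraries, with a log2 fold change and an adjusted p-value of their own comparison (labelled WT over labelled KO), per the file headers. The submitters' processing notes list HTSeq, DESeq2, hg19 and mm10. What each was used for, and which aligner, gene models and strandedness applied, is not given in the sources used here, so reads of overlapping genes cannot be told apart. Of the 39 genes, 18 in the authors' deposited table were higher in WT and 0 higher in KO at an adjusted p under 0.05.

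The test was run in R 4.3.3 by edgeR 4.0.16, with filterByExpr and TMM factors. A gene was kept if at least 3 libraries, of either label, reached the CPM worth 10 counts at the median library size. It also needed 15 counts in all. A robust quasi-likelihood test followed, with group as its only term and Benjamini-Hochberg adjustment over 15903 genes. The procedure was tested on simulated data. Standard errors are the absolute log2 fold change over the square root of F, and are approximate. At 1 CPM a library held 25.6 to 53.0 counts. Ratios to collagen used counts plus 0.5 and were not tested. Alternatives were DESeq2 1.42.0, limma-voom 3.58.1, other scalings, filters, covariates and library sets. The 2 tables of 4 libraries held the same counts and only named libraries for 2 alternatives. Exon lengths and 3′ UTRs came from GENCODE M21 on GRCm38, the assembly of mm10. Exon lengths were merged over all basic transcripts of a gene, and each 3′ UTR was that of the transcript with the longest coding sequence. Positions and promoters came from RefSeq on GRCm38.p6. The 39 genes and all lists were chosen with earlier results of these data known. Genes of the other lists that passed were named by smallest adjusted p, up to 3 a list. The list genes Cnmd and Adgre1 were not matched.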

Additional observations from a re-analysis of the deposited data

How the results depend on the processing

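Calls depended on the libraries and the model, while directions of the 12 genes that fell did not change in any of the 16 alternatives. The 12 were chosen by their fall in the same libraries, so their unchanged directions are no independent check. The number of the 39 genes called lower was 12, and 19 by DESeq2, 0 with the muscle mean, the basal keratinocyte mean or sex as a covariate, 0 with the 4 libraries of the second table, and between 0 and 18 when each library was left out in turn. The number called higher was 0, but 1 (Tnc) with the replicate block or the 4 libraries of the third table, and 0 to 2 when each library was left out. Over all genes 1181 were lower and 765 higher, against 2472 and 1909 by DESeq2, 0 and 0 with each covariate and with the second table, 2900 and 2386 with the third table, and 0 to 2938 lower and 0 to 2906 higher when each library was left out. Whether the same replicate number marks a pair cannot be settled from so few libraries. Same-numbered libraries had correlations of their deviations of 0.122, -0.157 and 0.193. The value of 0.193, for replicate 3, was the largest of all KO and WT pairings, while KO replicate 2 went best with WT replicate 1. With the replicate block 2112 genes were lower and 1705 higher, 14 of the 39 among those lower.

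The sign changed in at least 1 alternative for 8 genes that had not passed, among them Tnc, the farthest from 0 of the 39. With the muscle mean Fbn2 stood at -0.50, Mfap2 at 0.17, Lox at -0.43, Thbs1 at -0.60 and Tnc at -0.43. With the basal mean Fbn2 stood at -0.20, Mfap2 at 0.007, Lox at -0.26, Thbs1 at -0.32, Tnc at -0.13 and Acta2 at -0.17. Eln stood at -0.15 with sex. In the 4 libraries of the second table Eln stood at -0.20 and the Acta2 log2 fold change was -0.017. In those of the third Eln stood at -0.345, Acta2 at -0.085 and Postn at -0.07. Leaving out each library gave -0.26 to 0.30 for Eln, -0.10 to 0.33 for Postn and -0.10 to 0.29 for Acta2. The cause was not tested. Genes lower relative to collagen numbered 2, against 4 with other fibroblast markers as the divisor and 2 to 6 when each library was left out. Other scalings, limma-voom and no filter moved no count of calls by more than 1.5 times.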
